A study of Mus musculus with 10 samples.

Results

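Neurofilaments and neuronal cytoskeleton are described here through 9 genes of the 32531 gene symbols in the count tables. The genes were listed by symbol, with earlier results of these data known, and all 9 were found in every table. They are the neurofilament subunits Nefl, Nefm and Nefh, the related filament proteins Ina (alpha-internexin) and Prph (peripherin), the microtubule-associated proteins Map1b, Map2 and Mapt (tau), and the tubulin-binding protein Stmn2 (stathmin-2). RNA came from whole striatum of adult animals carrying the Chat-TRAP transgene (line DW167), whose Chat driver directs an EGFP tag on the ribosomal protein Rpl10a to cholinergic neurons. Tagged polysomes were immunopurified from animals of 3 groups with 3 libraries each: mice that self-administered saline, mice that self-administered cocaine, and yoked controls. A single input library held total striatal RNA of the saline group without purification. All groups carry the transgene, the labels do not state whether a library is 1 animal or a pool, and they do not state what the yoked animals received. If the libraries of a group are not separate animals, the p values measure a spread that may be technical.

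Immunopurified libraries held 24526765 to 75220922 reads assigned to genes (gene counts) and the input library 40912230. The saline libraries carry lane number 3, the cocaine and yoked libraries lane 4 and the input lane 5, so a lane difference cannot be told apart from a group difference wherever saline libraries or the input are one side. The labelled cell type was checked against its markers. All 11 cholinergic markers were at least 2-fold higher than in the input in each saline library, and Chat, which makes acetylcholine, measured 477 to 698 CPM (a gene's share of the library's gene counts, scaled to 1000000) after purification against 10.1 CPM in the input.

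Neurofilaments are the intermediate filaments of neurons. Light, medium and heavy chains, together with alpha-internexin, assemble into the filaments that fill axons and set their calibre, and peripherin takes part mainly in peripheral and motor neurons. Microtubules run beside them, stabilised by Map2 in cell bodies and dendrites, by tau in axons and by Map1b, which is best known from growing axons, while stathmins bind free tubulin and favour microtubule disassembly. Striatal cholinergic interneurons are few, large and widely branched, so their axon skeleton is of interest.

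The comparison with the input asked which of these transcripts stand out in ribosome-bound RNA of cholinergic neurons. Stmn2 was about 4-fold higher than in the input and Ina 1.76-fold higher, Mapt, Map1b and Nefh lay near the input level, and Nefl, Nefm and Map2 were 4.69-fold to 6.69-fold lower. Of the 8 genes with enough counts, 1 was at least 2-fold higher in all 3 saline libraries, where 12.2% of 15888 measured genes were, and 3 were at least 2-fold lower, where 23.1% were. The median log2 ratio of the 8 was 0.068, and that of all measured genes −0.20. The input has no replicate, so no test of these ratios was possible. In RNA from tissue, fewer cells of a type and less RNA per cell cannot be told apart.

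Nefl, the light chain on which the other subunits assemble, measured 73.3, 44.0 and 41.0 CPM in saline libraries 1 to 3. The input held 341 CPM, with a 95% counting interval of 335 to 347 CPM. All 3 libraries were far below the input, at a mean log2 ratio of −2.74 ± 0.46 (SD, n = 3). Nefm, the medium chain, measured 31.9, 17.6 and 17.5 CPM against 141 CPM in the input. Its mean log2 ratio was −2.72 ± 0.50, within the spread of that of Nefl, and in both genes saline library 1 was the highest of the 3. Nefl (mm10, chromosome 14, 68083863 to 68089095) and Nefm (68119545 to 68125004) are neighbours 30.4 kb apart. The noncoding gene A230070E04Rik overlaps one end of Nefm and measured 6.98 to 8.69 CPM in the saline libraries and 21.1 CPM in the input. The strand setting of the counting is not given in the sources used here, so reads in the overlap cannot be assigned with certainty.

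Nefh, the heavy chain with a long phosphorylated tail that spaces neighbouring filaments, did not follow the other subunits. It measured 18.6, 26.0 and 23.8 CPM in the saline libraries and 23.9 CPM in the input, with a counting interval of 22.5 to 25.5 CPM. Its mean log2 ratio was −0.085 ± 0.25, so its direction against the input was within the spread and turned to 0.0036 with TMM scaling. Nefh (chromosome 11, 4938754 to 4948064) overlaps one end of Ap1b1, a clathrin adaptor gene.

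Ina, a filament protein abundant in central neurons, was on the opposite side of the input from Nefl. It measured 126, 161 and 171 CPM in the saline libraries and 85.8 CPM in the input, a mean log2 ratio of 0.82 ± 0.23 (SD, n = 3). It was above the input in 9 of 9 immunopurified libraries. Saline library 1, which was the highest of the 3 for Nefl, was the lowest for Ina. Ina (chromosome 19, 47014681 to 47025327) overlaps one end of Nt5c2, a nucleotidase gene.

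Prph was close to undetected. It had 6 counts in the input (0.147 CPM, counting interval 0.0538 to 0.319 CPM) and 0 counts in the 3 saline libraries. Taking 3 counts over that group (0.0303 CPM) as the floor, the input value was 4.85 times the floor and the low end of its counting interval 1.78 times. In the other libraries it had counts in 4, with 17 in cocaine library 2 as the most. It was the 1 gene of the 9 that was left out of the tests by the filter on low counts.

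Reads of the 4 filament genes other than Prph were divided differently before and after purification, a comparison that does not depend on library scaling. Counts are not divided by transcript length, so each gene's share is compared between libraries and not with the shares of other genes. Nefl made up 57.6% of these reads in the input and 9.69% to 29.3% in the 9 immunopurified libraries. Ina made up 14.5% in the input and 50.5% to 69.8% after purification. Nefh made up 4.04% in the input and 7.33% to 12.2% after purification, and Nefm 23.9% and 6.92% to 12.9%. For all 4 genes the 9 libraries lay on one side of the input. The widest 95% Wilson interval for Nefl in the saline libraries, that of saline library 1, was 28.2% to 30.4%, so counting error was small against these differences.

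**Figure D1:**
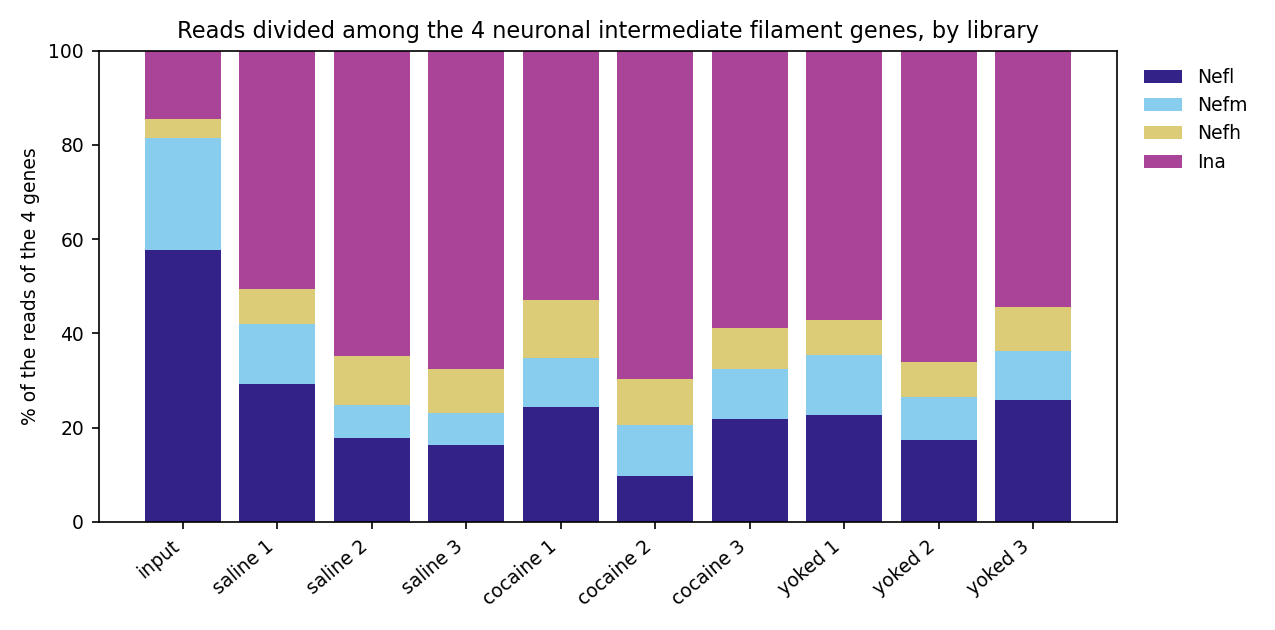
Stacked bars give the percent of reads of Nefl, Nefm, Nefh and Ina in each of the 10 libraries, each bar adding to 100. Ina takes 50.5% to 69.8% in the immunopurified libraries and 14.5% in the input, and Nefl 57.6% in the input.

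Within a library, the ratio of Nefm to Nefl counts was close to that of the input in the saline libraries, at 0.401 to 0.436. It was 0.414 in the input and 0.397 to 0.568 in 8 immunopurified libraries, with yoked libraries 1 and 2 the highest of these, at 0.568 and 0.534. Cocaine library 2 stood apart at 1.13. The ratio of Nefh to Nefl counts was 0.0702 in the input and 0.254 to 0.989 after purification, a median 6.16 times the input value. The ratio of Ina to Nefl was 0.252 in the input and 1.72 to 7.20 after purification.

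The microtubule-associated proteins also separated. Map2, the dendritic protein, measured 211, 191 and 179 CPM in the saline libraries against 905 CPM in the input. Its log2 ratio of −2.23 ± 0.12 (SD, n = 3) had a narrow spread, and 9 of 9 immunopurified libraries were below the input. Mapt, the axonal protein tau, measured 287, 289 and 248 CPM against 214 CPM. All 9 libraries were above the input for Mapt, by a small amount, with a saline log2 ratio of 0.36 ± 0.12. Map1b had the most reads of the 9 genes in every library, and measured 2456, 3046 and 2753 CPM against 2350 CPM in the input. Its log2 ratio was 0.22 ± 0.16, and 8 of 9 libraries were above the input.

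The ratio of Map2 to Mapt counts was 4.23 in the input and 0.571 to 0.858 in the 9 immunopurified libraries. The ratio of Map1b to Map2 was 2.60 in the input and 11.6 to 15.9 after purification. Neither range reached the input value.

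Stmn2, which is enriched in growing and regenerating axons, was the gene furthest above the input. It measured 780, 645 and 841 CPM in the saline libraries and 187 CPM in the input, a log2 ratio of 2.01 ± 0.20 (SD, n = 3). Its mean ratio was above those of 94.97% of measured genes. Over all 9 libraries the level ran from 345% of the input, in saline library 2, to 637%, in cocaine library 2. Of the other stathmins, Stmn3 was 5.47-fold and Stmn1 4.71-fold higher than in the input, and Stmn4 was 3.21-fold lower, each by at least 2-fold in all 3 saline libraries.

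**Figure D2:**
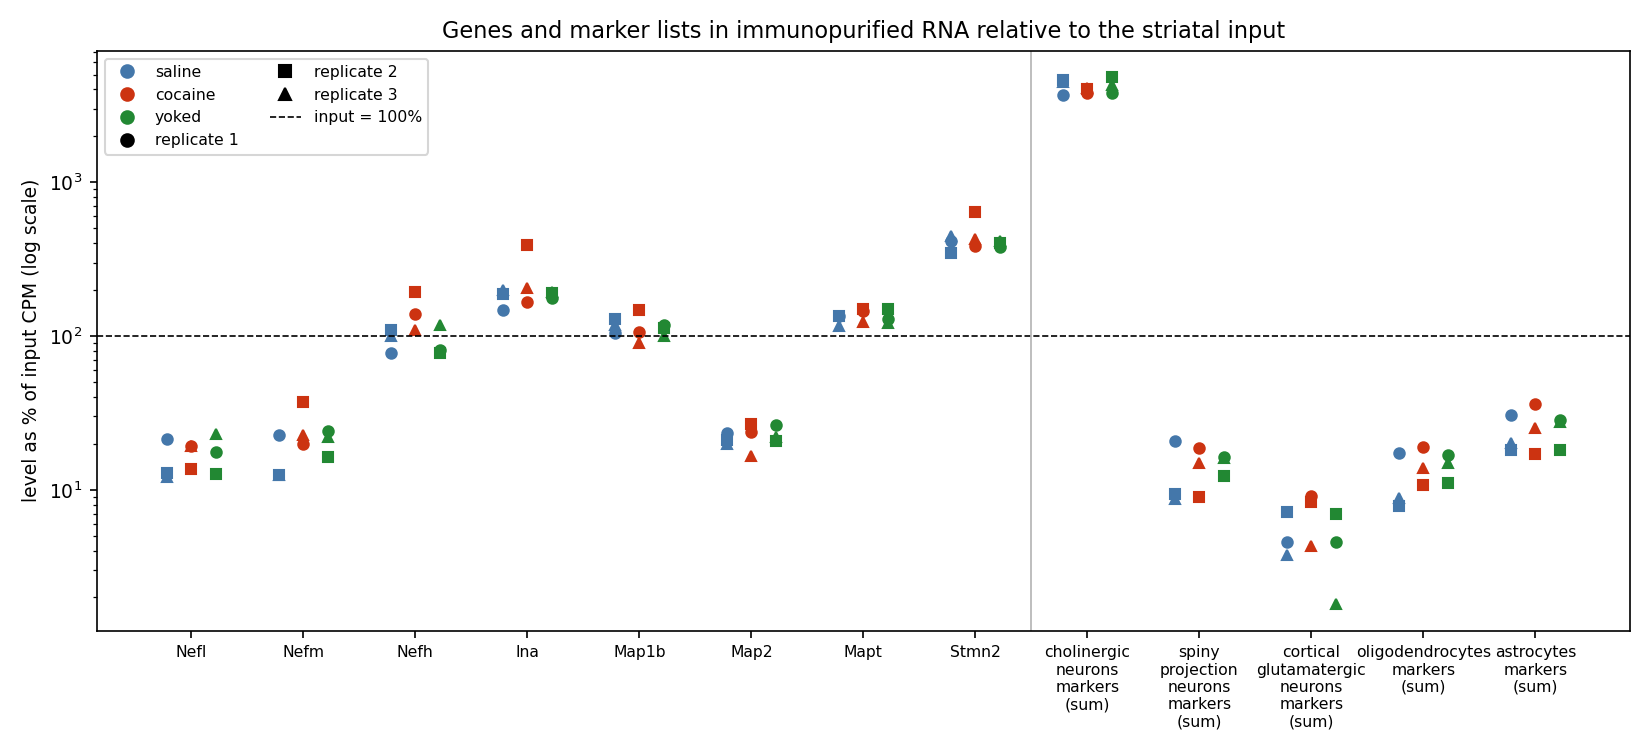
Each point is 1 immunopurified library, coloured by group and shaped by replicate number, and shows its CPM as a percent of the input CPM on a log axis. Genes are on the left, and summed marker lists of 5 cell types on the right; Nefl, Nefm and Map2 lie at 12.03% to 37.3% of the input, and the cholinergic markers at 3672% and above.

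The level of Nefl was set beside markers of spiny projection neurons, the main cell type of the striatum. The summed level of 10 such markers, none of them at 0, was 6842 CPM in the input and 8.74% to 20.8% of that after purification, and Nefl lay at 12.03% to 23.2% of its own input level. The sum was 1422, 646 and 598 CPM in saline libraries 1 to 3, where Nefl measured 73.3, 44.0 and 41.0 CPM. In the cocaine libraries it was 1288, 612 and 1027 CPM, beside 66.1, 46.6 and 65.5 CPM of Nefl. In each of these groups the order of the libraries was the same for both. In the yoked libraries the sum was 1122, 848 and 1099 CPM beside 59.7, 43.0 and 79.0 CPM of Nefl, so that library 2 was the lowest for both and the order of the other libraries differed. Nefm and Map2, which were also well below the input, had the order of the spiny sum in the saline and in the yoked libraries. In the cocaine group both were instead highest in library 2, at 52.7 and 241 CPM, where the spiny sum was lowest. Ina was lowest in library 1 of each group, at 126, 143 and 151 CPM. This reading was made after the values were seen. The part of RNA from spiny neurons in the level of Nefl, Nefm or Map2 was not tested.

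The sums of the other marker lists in immunopurified RNA were also below the input in most cases. The 6 cortical glutamatergic markers stood at 1.81% to 9.05% of the input, the 8 oligodendrocyte markers at 7.88% to 19.1%, the 6 astrocyte markers at 17.1% to 36.2% and the 9 markers of other interneurons at 13.2% to 26.4%. The 6 microglial markers were at 23.0% to 53.1% and the 6 endothelial and mural markers at up to 119%. None of these lists had a marker at 0 throughout a group. The within-group order of Nefl was not that of the cortical sum, which was 18.4, 29.1 and 15.2 CPM in saline, nor that of the sum of other interneurons, at 29.4, 31.9 and 30.8 CPM. Glial sums came closer to it. In cocaine libraries 1 to 3 the astrocyte sum (167, 78.6 and 116 CPM) and the oligodendrocyte sum (555, 315 and 406 CPM) had the order of Nefl. Both were lowest in library 2 of the yoked group, as Nefl was. In saline both were highest in library 1, at 142 and 506 CPM, but lowest in library 2, where Nefl was lowest in library 3. The part of RNA from glia in the level of Nefl was not tested.

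**Figure D3:**
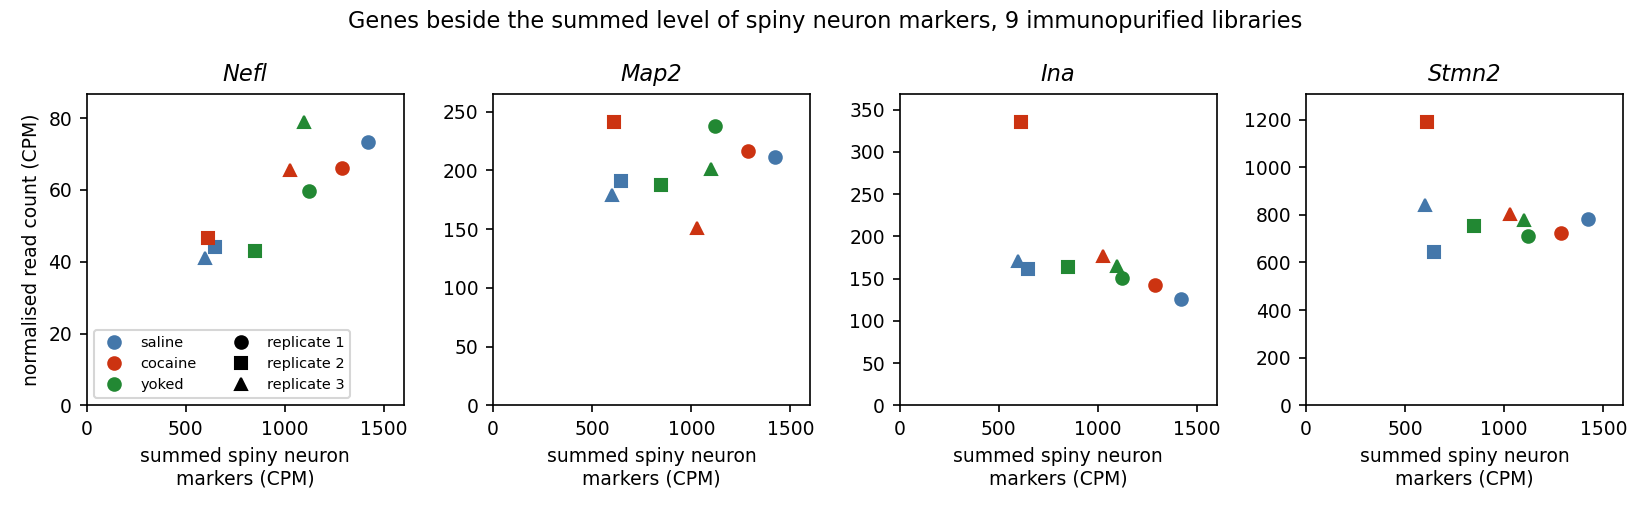
The horizontal axis of each panel is the summed CPM of 10 spiny neuron markers and the vertical axis the CPM of 1 gene in the 9 immunopurified libraries, coloured by group and shaped by replicate number. Library 2 or 3 of each group has the lowest Nefl, at 41.0, 46.6 and 43.0 CPM, and the lowest spiny sum; cocaine library 2 stands above the rest for Ina and Stmn2.

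Other cytoskeletal genes were taken from 9 lists with 134 measured genes, of which 22 passed 2-fold above the input and 20 passed 2-fold below it in all 3 saline libraries. These are 16.4% and 14.9%, where 12.2% and 23.1% of all measured genes passed, and the median log2 ratio was 0.20. The single lists are small and are described by their counts. Tubulins were mostly on the high side, with 6 of 13 at least 2-fold higher, 0 lower and a median log2 ratio of 1.16. Tubb2a, a beta-tubulin, was 4.21-fold and Tuba1a, the main neuronal alpha-tubulin, 4.08-fold higher, while Tuba4a (1.24-fold) and Tuba8 (1.39-fold) were close to the input. Among 16 enzymes that modify or sever microtubules, 5 were higher and 0 lower, with Agbl4, a deglutamylase, at 4.53-fold and Fign, a severing enzyme, at 4.52-fold. By mean ratio 11 of the 16 lay above the input and 5 below it. Katna1, also of severing, (2.30-fold) and Ttll11 (1.29-fold) were lower on average, but not by 2-fold in all 3 saline libraries. Without saline library 3, 1 gene of each of these lists was called lower. Without saline library 2, 7 tubulins were higher, and without saline library 1, 6 of the enzymes were.

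Of 14 spectrins, ankyrins and proteins of the axon initial segment, 0 were higher and 6 lower. By mean ratio 11 lay below the input and 3 above it. Add2, an adducin of the membrane skeleton, was 7.97-fold and Sptbn1, a beta-spectrin, 3.71-fold lower. Ank1, an ankyrin, (2.04-fold) and Nfasc (1.70-fold) were higher on average, but not by 2-fold in all 3 saline libraries. For each list count here, the share over all measured genes was 12.2% higher and 23.1% lower. Of 23 other microtubule-associated proteins 2 were higher, Map4 at 3.98-fold and Tppp3 at 3.66-fold, and 4 were lower, among them Map6d1 at 5.42-fold and Map7 at 3.51-fold. Without saline library 3, 3 of them were higher. Of 16 growth cone and actin-linked genes 4 were higher, among them Basp1 at 3.80-fold and Dpysl3 at 3.19-fold. The 2 lower ones were Tmod1 at 9.34-fold and Marcksl1 at 3.13-fold. Without saline library 1, 5 of these genes were higher. Of 21 transport motor genes 1 was higher, the kinesin light chain Klc1 at 2.96-fold, and 3 were lower, with Kif1c at 3.83-fold and Kif5c at 2.35-fold. Klc2 was 2.28-fold higher on average, but not by 2-fold in all 3 saline libraries. Without saline library 1 or without saline library 3, 2 motor genes were higher. Of 17 tau and neurofilament kinases and phosphatases, Mark4 was 3.74-fold higher and Mark2 2.45-fold lower, and 2 were higher without saline library 2 or without saline library 3. Cdk5 (2.12-fold higher on average) and Ppp2r2a (1.72-fold lower) did not pass 2-fold in all 3 saline libraries. Of 11 other intermediate filament and linker genes 1 was higher and 3 were lower, with Gfap of astrocytes 11.3-fold and Vim 5.74-fold lower. Without saline library 2 the counts were 2 and 6. Nes (3.30-fold) and Lmnb2 (1.08-fold) were higher on average, but not by 2-fold in all 3 saline libraries.

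Cocaine against saline self-administration asked whether these transcripts differ after taking the drug. No gene of the set passed. By edgeR's quasi-likelihood test 0 of 8 were called at a Benjamini-Hochberg adjusted p under 0.05, as were 0 of all 14989 genes tested (0%), and DESeq2 and limma voom also called 0 of the 8. At an unadjusted p under 0.05 there were 2 of the 8, Nefm and Nefh, where 5.28% of all genes were. The fitted log2 fold change was above 0 for 7 of 8, with a median of 0.23, and the median of all genes was 0.0049. Among the neurofilament chains the values were highest for Nefm and Nefh.

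Nefm measured 28.2, 52.7 and 31.9 CPM in cocaine libraries 1 to 3. The saline libraries held 31.9, 17.6 and 17.5 CPM, so the groups overlapped through saline library 1 and cocaine library 2 was the highest. The log2 fold change was 0.79 ± 0.31 (SE), with a 95% interval of 0.13 to 1.44 and an adjusted p of 0.850 in edgeR. It was 0.43 without cocaine library 2 and 1.12 without saline library 1.

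Nefh measured 33.03, 46.1 and 26.2 CPM in the cocaine libraries. The saline libraries held 18.6, 26.0 and 23.8 CPM, so all 3 cocaine libraries lay above all 3 saline libraries. Of all tested genes 4.88% lay wholly above saline in this way and 10.3% did not overlap in either direction, and Nefh was the 1 of the 8 genes without overlap. Cocaine library 3, at 26.2 CPM, was close to saline library 2, at 26.0 CPM. The log2 fold change was 0.65 ± 0.27 (SE), with a 95% interval of 0.078 to 1.23 and an adjusted p of 0.850 in edgeR. It was 0.38 without cocaine library 2.

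Ina measured 143, 336 and 177 CPM in the cocaine libraries. Its high value in cocaine library 2 set the mean of 219 ± 103 CPM (SD, n = 3) against 153 ± 23.3 CPM in saline. The log2 fold change of 0.55 (95% interval −0.024 to 1.12, adjusted p of 0.850 in edgeR) became 0.068 without that library. Nefl measured 66.1, 46.6 and 65.5 CPM in the cocaine libraries, with a log2 fold change of 0.18 and an interval of −0.37 to 0.74. It was 0.49 without saline library 1 and 0.046 without saline library 3.

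The microtubule-associated proteins differed by less than the spread between libraries. Map1b had a log2 fold change of −0.0053 with an interval of −0.43 to 0.42, Map2 of 0.092 with −0.33 to 0.51, and Mapt of 0.15 with −0.18 to 0.47. The interval of Mapt was the narrowest of the 8. Stmn2 measured 723, 1190 and 802 CPM in the cocaine libraries, with a log2 fold change of 0.28 and an interval of −0.15 to 0.72. Without cocaine library 2 the log2 fold change of Stmn2 was 0.010.

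**Figure D4:**
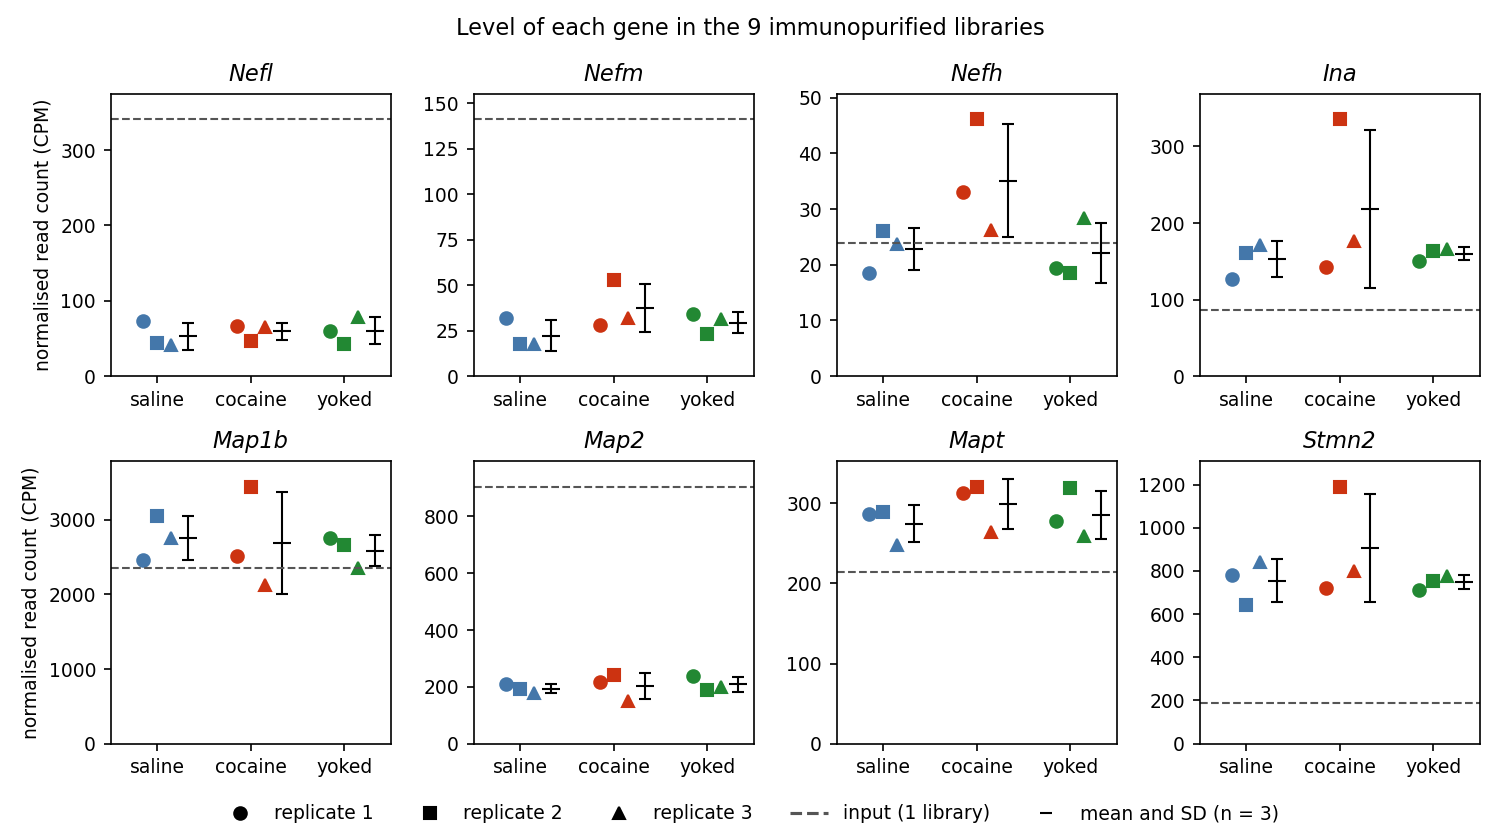
CPM of 8 genes in each immunopurified library by group, with the mean and SD of 3 libraries beside the points and the single input library as a dashed line. Nefl, Nefm and Map2 lie below the line and Stmn2 and Ina above it; cocaine library 2 (red square) is the highest point for every gene shown except Nefl.

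Cocaine library 2, the deepest of the 9 at 75220922 gene counts, was the highest library for 7 of the 8 genes, where 19.3% of all tested genes had their highest level in it. The exception was Nefl, at 46.6 CPM against 66.1 and 65.5 CPM in the other cocaine libraries. The summed level of Nefl, Nefm, Nefh and Ina was 481 CPM in that library. In the other libraries of the cocaine group it was at least 270 CPM, in saline 249 to 253 CPM and in yoked libraries 249 to 304 CPM. The saline libraries were thus close to each other in this sum although Nefl and Ina differed between them in opposite directions. The spiny neuron sum of cocaine library 2, 612 CPM, was the lowest of its group. The summed cortical glutamatergic markers were at 17.5 to 36.5 CPM in the cocaine group, 15.2 to 29.1 CPM in saline and 7.28 to 28.2 CPM in yoked libraries. Against saline, the median log2 fold change was 0.52 over 5 tested cortical markers, 0.52 over 4 endothelial and mural markers, 0.42 over 8 oligodendrocyte, 0.26 over 6 astrocyte, 0.21 over 9 other interneuron and 0.097 over 10 spiny neuron markers, and −0.35 over 5 microglial markers. Against yoked it was 0.93 for cortical, 0.17 for astrocyte and 0.091 for oligodendrocyte markers, and below 0 for the other lists, at −0.43 for other interneurons. The sum of the other interneuron markers was 34.5, 51.0 and 43.0 CPM in the cocaine libraries, all above saline at 29.4 to 31.9 CPM, and of the cocaine group cocaine library 2 was the highest. None of these markers was called by edgeR; at an unadjusted p under 0.05 against saline there were 2 oligodendrocyte, 1 cortical and 1 other interneuron markers. The part of depth and of these markers in the values of the 8 genes was not tested.

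Cocaine self-administration against yoked controls compared 2 groups that share a lane number. Of the 8 genes edgeR's quasi-likelihood test called 0, as it did of all 14989 (0%), and DESeq2 and limma voom called 0; at an unadjusted p under 0.05 there was 1, Nefh, where 2.61% of all genes were. The median log2 fold change of the 8 was 0.21, and that of all genes 0.0011. Nefh measured 19.3, 18.6 and 28.4 CPM in yoked libraries 1 to 3. Yoked library 3 lay above cocaine library 3, so the groups overlapped. None of the 8 genes had groups without overlap, where 6.78% of all genes did and 3.42% lay wholly above the yoked group. The log2 fold change of Nefh was 0.71 ± 0.27 (SE), with a 95% interval of 0.14 to 1.29 and an adjusted p of 0.9997 in edgeR, and it was 0.43 without cocaine library 2.

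Ina measured 151, 164 and 165 CPM in the yoked libraries, close to each other, and had a log2 fold change of 0.50 with an interval of −0.072 to 1.07. Without cocaine library 2 it was 0.011. Nefm measured 33.9, 23.0 and 31.4 CPM in the yoked libraries, with a log2 fold change of 0.39 and an interval of −0.25 to 1.04, which was 0.032 without cocaine library 2. Stmn2 measured 712, 755 and 778 CPM, with a log2 fold change of 0.32 that was 0.037 without cocaine library 2. Nefl measured 59.7, 43.0 and 79.0 CPM, with a log2 fold change of −0.0090. Map1b, Map2 and Mapt had log2 fold changes of 0.10, −0.0041 and 0.11.

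Yoked controls against saline asked for differences among animals of the 2 groups without cocaine self-administration. None of the 8 genes was called by edgeR, DESeq2 or limma voom, 0 of all 14989 (0%) were called by edgeR, and 0 of the 8 and 2.18% of all genes had an unadjusted p under 0.05. The largest log2 fold change was that of Nefm, 0.39 with an interval of −0.26 to 1.04, followed by Nefl at 0.19. Nefh, Ina, Map1b, Map2, Mapt and Stmn2 lay between −0.11 and 0.097. The groups overlapped for each of the 8 genes, where 7.05% of all genes had no overlap and 4.3% lay wholly above saline. The median log2 fold change was 0.76 over 9 other interneuron, 0.50 over 8 oligodendrocyte, 0.46 over 4 endothelial and mural and 0.19 over 10 spiny neuron markers. All 8 oligodendrocyte and all 10 spiny neuron markers were above 0. The median was −0.14 over 5 cortical, −0.10 over 5 microglial and −0.083 over 6 astrocyte markers. None of these markers was called by edgeR, and their part in the values of the 8 genes was not tested. The 3 comparisons share libraries, so their values are not independent of each other.

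**Figure D5:**
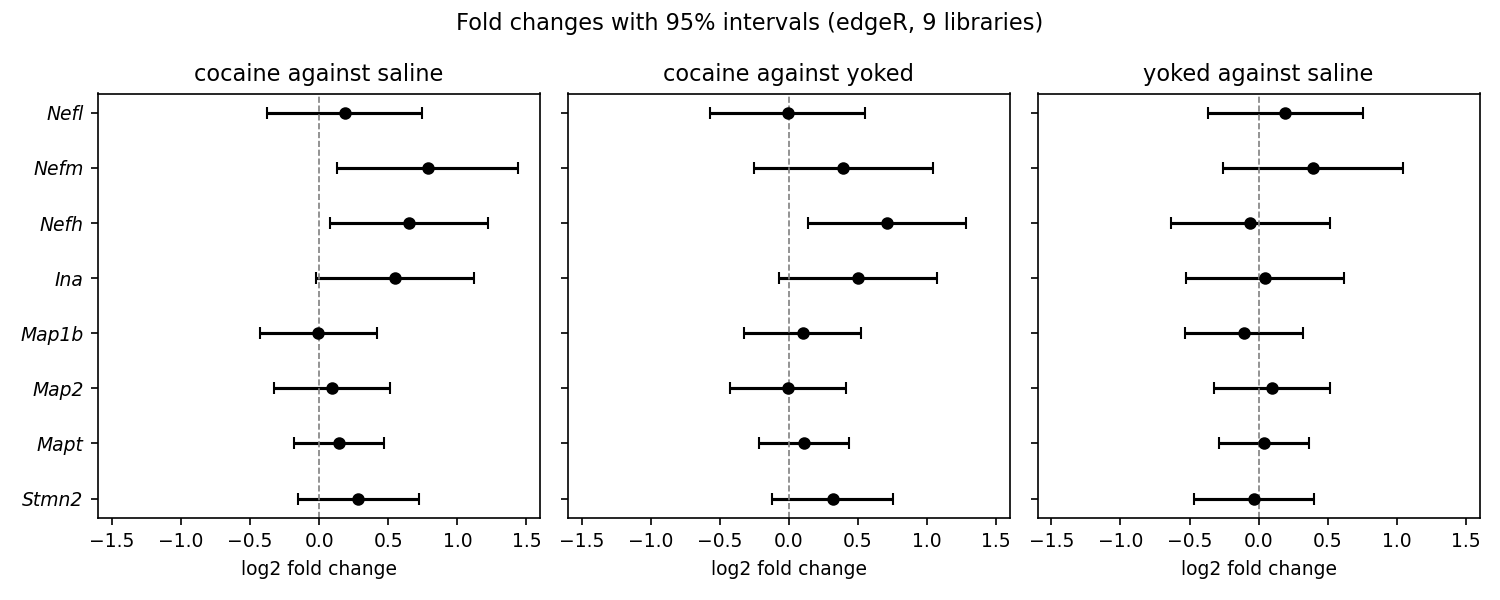
Points give the log2 fold change of 8 genes in the 3 comparisons and bars the 95% interval from the edgeR fit of 9 libraries, with 0 as a dashed line. The intervals of Nefm and Nefh against saline and of Nefh against yoked lie above 0 before any adjustment, and none of these passed after adjustment over all genes.

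The genes differed in how steady they were between libraries of a group. Mapt had the smallest pooled SD within groups, 0.14 on the log2(CPM + 0.5) scale, against a median of 0.28 over 10247 genes of at least 5 CPM. Map1b (0.23), Map2 (0.24) and Stmn2 (0.25) were also below that median. Nefl (0.398), Ina (0.39), Nefm (0.43) and Nefh (0.33) were above it. By this pooled SD the filament genes were the more variable ones of the set, which widens their intervals in each treatment comparison. For Ina the spread lay mainly in the cocaine group, at 219 ± 103 CPM (SD, n = 3), where library 2 held 336 CPM. It was 153 ± 23.3 CPM in saline and 160 ± 8.11 CPM in yoked libraries.

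The patterns of the neurofilament genes over the 9 libraries were not each other's nearest. Likeness was measured as the root mean square difference of log2(CPM + 0.5) centred on the gene's mean, over 9 libraries and 10247 genes, which share depth and composition. The genes closest to Nefl were Plekhh1 (0.12), Kbtbd11 (0.12) and Utrn (0.14), each of which was lower in the saline libraries than in the input, for example Kbtbd11 at 45.7 CPM on average against 273 CPM. Of all measured genes 44.2% had a mean log2 ratio to the input above 0. Closest to Nefm were Zfp341 (0.15), Zfp330 (0.20) and Las1l (0.20), and closest to Nefh were Thada (0.17), Zfp804a (0.18) and Zfp608 (0.18). The genes closest to Nefm lay nearer the input. Zfp330 measured 15.4 CPM on average in saline against 15.1 CPM, Las1l 21.0 against 21.9 CPM and Zfp341 8.95 against 11.8 CPM. Nefm and Nefl stood at a difference of 0.44, where the median gene stood at 0.45 from Nefl and 0.55 from Nefm. Ina stood at 0.41 from Nefm and was closer to it than Nefl was. Ina stood at 0.27 from Nefh, where the median gene stood at 0.49. Nefl stood at 0.53 from Nefh and 0.60 from Ina, further than the median gene at 0.45. Nefm, Nefh and Ina were each highest in cocaine library 2, and Nefl was not. The part of that library in these differences was not tested.

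Of the 9 further cytoskeletal lists, 0 of 135 tested genes passed in any treatment comparison by edgeR. At an unadjusted p under 0.05 there were 11 for cocaine against saline (8.15%, where all genes gave 5.28%), 7 for cocaine against the yoked group (5.19%, where all genes gave 2.61%) and 2 between yoked and saline animals (1.48%, where all genes gave 2.18%). The smallest p values toward higher levels after cocaine than after saline belonged to Kif1c, a kinesin, at 8.25 ± 2.68 against 3.99 ± 0.264 CPM (SD, n = 3), and Ttll1, a tubulin polyglutamylase subunit, at 125 ± 23.9 against 87.2 ± 2.70 CPM. Toward lower levels they belonged to Dpysl3 and Dpysl2, collapsin response mediators of growth cones, at 87.8 ± 15.4 against 123 ± 29.3 and 741 ± 134 against 987 ± 176 CPM. Against yoked animals they were Tubb4a (1567 ± 1112 against 831 ± 29.3 CPM), Tubg1, Mark2 and Dclk2. For yoked against saline they were Kif1c (7.75 ± 0.313 against 3.99 ± 0.264 CPM), Mark2, Tuba8 and Mark1. None of these passed, and the adjusted p was at least 0.850 for each in edgeR.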

How the data were processed

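The authors deposited raw read counts per gene symbol, 1 table for each of 10 libraries; STAR 2.0.0e, HTSeq and mm10 are named per the submitters' processing notes, and annotation and strand setting are not given in the sources used here. Rows that name no gene were left out (up to 57.1% of reads in an immunopurified library were not uniquely aligned). CPM were computed from all gene counts. Ratios to the input used genes with at least 20 counts in the input or in the mean saline library, and called a gene at 2-fold in all 3 saline libraries.

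Treatment groups were compared in R 4.3.3 with edgeR 4.0.16 (quasi-likelihood F-test, robust, TMM, filter with minimum count 10 and minimum total 15), in 1 fit of 9 libraries with 6 residual degrees of freedom and Benjamini-Hochberg adjustment over 14989 genes. DESeq2 1.42.0 and limma 3.58.1 voom with quality weights, RLE scaling, no filter, 2-group fits, a replicate block and leaving out libraries were alternatives. Counting intervals are exact Poisson at the 95% level and cover counting error only, since reads carry no molecular identifiers. Coordinates of GRCm38 came from RefSeq, in which 22961 of 32531 symbols were found.

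The members and lists were chosen with earlier results of these data known. All 9 members are named. Of each cytoskeletal list, up to 2 highest and 2 lowest ratios to input are named, among genes with 100 or more counts on the higher side. In treatment comparisons the called genes of these lists are named or, with none, the 2 smallest p in each direction.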

Additional observations from a re-analysis of the deposited data

How the results depend on the processing

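There were 3 libraries per group and 1 input. Among the 8 tested genes, 0 were called in any comparison under any alternative. Without a filter on low counts, 60, 27 and 18 of all genes were called for cocaine against saline, cocaine against yoked and yoked against saline, and 0 of the 8. At 4-fold in place of 2-fold, 0 genes of the set were called higher than the input, as Stmn2 was at 345% of the input in saline library 2. The other counts against the input did not change with TMM or median scaling, 0.5 added counts, all 9 libraries or without any 1 saline library.

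Log2 fold changes kept their direction in 346 of 384 refits. For cocaine against saline, Map1b turned to 0.0068 with RLE factors, 0.021 without a filter, 0.017 with only the 2 groups and 0.0068 with DESeq2, and with limma voom Map2 turned to −0.11 and Stmn2 to −0.037. For cocaine against yoked, limma voom turned Nefm to −0.0039 and Map1b to −0.14, and Map2 turned to 3.8e-04 with RLE factors, 0.0083 without a filter and 3.8e-04 with DESeq2. The cause was not tested.

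With libraries left out, including all 3 numbered 2, the ranges that crossed 0 for cocaine against saline were −0.25 to 0.16 for Map1b, −0.097 to 0.28 for Map2 and −0.10 to 0.43 for Stmn2. For cocaine against yoked they were −0.23 to 0.24 for Nefl, −0.15 to 0.57 for Nefm, −0.0086 to 0.74 for Ina, −0.17 to 0.27 for Map1b and −0.28 to 0.19 for Map2. For yoked against saline they were −0.054 to 0.495 for Nefl, −0.29 to 0.18 for Nefh, −0.077 to 0.16 for Ina, −0.030 to 0.21 for Map2, −0.013 to 0.090 for Mapt and −0.14 to 0.071 for Stmn2.

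Replicate numbers are shared by the groups, with no stated pairing. Deviations from group means correlated at 0.050 to 0.295 between libraries of the same number (9 pairs) and at −0.20 to 0.090 between others, and 16 of 18 best matches across groups had the same number. With a replicate block 0 genes were called in each comparison, and Nefl turned to 0.013 for cocaine against yoked.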
